A study of Chlamydomonas reinhardtii with 21 samples.

Results

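In the green alga Chlamydomonas reinhardtii, 185 of 17741 gene models had a lower transcript level in the complemented strain UVM11-C9 than in its recipient UVM11, but not in the sister strain UVM11-C1 and not in either mutant. They were chosen by measured values, from the 15425 gene models whose mean over the 21 cultures exceeded 0.1 FPKM. FPKM is the number of fragments mapped to a gene, scaled to gene length and to the total of mapped fragments, here as deposited by the authors. On the log2(FPKM + 0.1) scale, the mean of UVM11-C9 had to lie more than 1 below that of UVM11 grown in the same batch. The mean of UVM11-C1 had to lie within 0.5 of UVM11, and the means of UVM4 and of UVM11 in the earlier batch within 1 of Elow47. The differences that selected the genes are therefore given as a description, and calls on them are printed as counts from which nothing is read.

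Elow47 is the control strain, a transformant of the cell-wall-reduced, arginine-requiring strain CC-4350 that carries the transgenes CRY1-1 and ARG7 and the SRTA wild-type allele. Elow47 gave rise by UV mutagenesis to UVM4, with the allele srta-2, and to UVM11, with srta-1, and both carry the same transgenes. The complemented strains, which are UVM11-C1 and UVM11-C9, are UVM11 lines transformed with the SRTA wild-type cDNA with a FLAG tag under the native SRTA promoter, together with a hygromycin resistance gene. Batch 1 comprised 4 cultures each of Elow47, UVM4 and UVM11, and batch 2 comprised 3 cultures of each complemented strain and 3 further ones of UVM11. Cells grew under continuous light in liquid TAP medium, which contains acetate. Each complemented strain is one transformed line, had been kept on hygromycin for years, and still carries srta-1, so that an effect of the SRTA transgene and a property of one line cannot be told apart within UVM11-C9 alone. The labels number replicates, which the paper calls biological replicates and which are called cultures here. They do not say more about how the cultures were separated. The p-values set a difference against the spread between such cultures, which the model used here pools over all 6 groups of strain and batch.

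SRTA encodes a sirtuin. Sirtuins are enzymes that use NAD+ to remove acetyl groups from proteins, among them histones, and deacetylated histones generally go with less accessible chromatin. The srta mutants are known as strains that express nuclear transgenes at high levels, and returning the wild-type allele was meant to restore silencing. Transforming DNA integrates into the nuclear genome of this alga at sites that are largely unpredictable, so that transformed lines differ from each other. The annotation used here gives these genes a position but no name. Only Cre10.g449020, which is described as related to aromatic amino acid aminotransferases, has a function stated in the sources, and the other genes are therefore described by position and level.

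SRTA (Cre10.g462200, chromosome 10, 5935593 to 5941064) was measured first. It had 2.92, 2.65 and 2.83 FPKM in UVM11 of batch 2. It had 3.47, 3.66 and 3.32 FPKM in UVM11-C9, and 5.10, 5.63 and 4.84 FPKM in UVM11-C1. Each complemented strain lay above UVM11 of batch 2 in all 3 cultures. In batch 1, without the SRTA transgene, SRTA ranged from 2.65 to 3.99 FPKM, and UVM11-C9 lay inside this range. These values do not separate srta-1 from the introduced allele. The paper reports strong wild-type allele expression in both complemented strains, from allele ratios in sequenced cDNA and also from its RNAseq data. It also reports that a newly introduced reporter transgene was mostly not or weakly expressed in them. The log2 difference from UVM11 was 0.30 in UVM11-C9 (SE 0.11, limma adjusted p = 0.0304) and 0.87 in UVM11-C1 (SE 0.11, limma adjusted p = 1.82e-05). The exact two-sided permutation test gave p = 0.1 for each, the smallest value that 3 cultures against 3 allow. Of the 17 histone deacetylase genes with identifiers in the study, 0 were among the 185 genes, beside 1.2% of all tested genes. By the threshold defined next, 0 changed in UVM11-C9, beside 2.18% of all tested genes called lower. At such shares 17 genes are too few, and nothing is read from these counts. Their log2 differences from UVM11 lay between -0.84 and 0.47, with a median of 0.08, against -0.01 over all tested genes. The lowest and the highest difference had limma adjusted p = 0.00275 and 0.000642, so that changes smaller than the threshold did occur.

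The FPKM sum of a library lay between 542464 and 617687, and the number of reads behind them is not known, so that precision is given as the spread between cultures. Replicate cultures correlated at 0.988 or more across the tested genes in log2(FPKM + 0.1). UVM11-C9 correlated with the other batch 2 cultures at 0.968 to 0.976, and UVM11-C1 with UVM11 at 0.981 to 0.985. Calls were made with limma in one model of the 6 groups of strain and batch, and required an absolute log2 difference above 1 and a Benjamini-Hochberg adjusted p below 0.01. One library stood apart for these genes. Culture 3 of Elow47 was the highest of the 12 batch 1 cultures in 69 of the 185 genes, 37.3%, against 15.6% of all tested genes.

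In every culture the median level of the 185 genes followed the group. Relative to the Elow47 mean, the median over the genes was between 0.68 and 0.82 on the log2 scale in the 3 UVM11 cultures of batch 2 and between 0.53 and 0.66 in UVM11-C1. It was between -0.67 and -0.57 in UVM11-C9. In batch 1 it lay between -0.09 and 0.07 in 11 cultures and at 0.19 in culture 3 of Elow47. The median over all 15425 tested genes stayed between -0.01 and 0.01 in each culture. The selection held the means of UVM4 and UVM11 in batch 1 within 1 of Elow47, which favours a narrow spread of batch 1. Over all tested genes, which were not held to this limit, the spread was narrow there as well. The selection set the distance of UVM11-C9 below UVM11 of batch 2, which favours a low UVM11-C9 and a high UVM11 of batch 2 alike. The level of neither relative to batch 1 was a condition in itself. UVM11-C1 had to follow UVM11 closely, so that it adds no separate evidence on the level of UVM11 in batch 2.

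**Figure D1:**
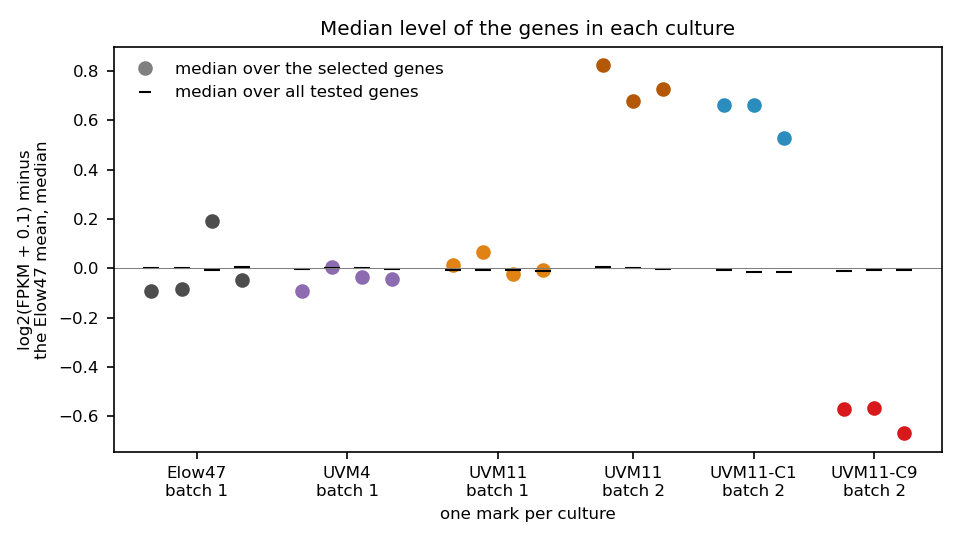
Median over the 185 genes (coloured points) and over all 15425 tested genes (black dashes) of log2(FPKM + 0.1) minus the Elow47 mean, one mark per culture, by strain and batch. The genes sit above 0.5 in UVM11 and UVM11-C1 of batch 2, below -0.5 in UVM11-C9, and near 0 in batch 1 apart from one Elow47 culture at 0.19.

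The sharpest difference was a block of 3 neighbouring gene models on chromosome 9, of which 2 were listed at 0 in UVM11-C9. Cre09.g397549 (4835161 to 4842266, version 5 of the genome) had 53.3, 58.5 and 59.3 FPKM in UVM11 of batch 2 and 60.4, 58.0 and 56.2 FPKM in UVM11-C1. All 3 UVM11-C9 cultures were listed at 0. In batch 1 it ranged from 69.8 to 82.4 FPKM around a median of 75.1 FPKM. It was thus among the more strongly expressed of the 185 genes in 18 cultures and listed at 0 in the other 3.

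Cre09.g397586, the next gene model on the right (4843161 to 4859141), was the only other one of the 185 genes listed at 0 in every UVM11-C9 culture. It had 3.19, 3.37 and 3.10 FPKM in UVM11 of batch 2, 3.37, 3.19 and 3.38 FPKM in UVM11-C1, and 3.38 to 3.98 FPKM in batch 1. No fold change is given for these genes, since the files hold no counts from which a lower limit could be set. On the left side, Cre09.g397512 (4829191 to 4835010) kept a reduced signal, with 1.08, 1.14 and 0.883 FPKM in UVM11-C9 against 5.21, 5.01 and 5.51 FPKM for UVM11 and 4.64, 4.63 and 4.28 FPKM for UVM11-C1. Its mean in UVM11-C9 was 19.7% of that in UVM11, and UVM11-C9 did not overlap any other group.

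The 3 gene models span 29951 bases without another gene model between them, and the levels changed abruptly at the right end. Cre09.g397623, which starts at 4859324, had a mean of 176 FPKM in UVM11-C9, 187 FPKM in UVM11-C1 and, in UVM11, 249.6 FPKM. The following Cre09.g397660 and Cre09.g397697 had 117 and 812 FPKM in UVM11-C9 and 108 and 836 FPKM in UVM11. Further right, Cre09.g397734 and Cre09.g397771 were higher in UVM11-C9, with 4.22 and 1.68 FPKM against 3.03 and 0.943 FPKM in UVM11. To the left, several gene models of low level were also lower in UVM11-C9 than in UVM11 of batch 2 without meeting the conditions. Cre09.g397475 had means of 0.222 FPKM in UVM11-C9, 0.393 FPKM for UVM11-C1 and 0.695 FPKM for UVM11, and Cre09.g397364 had 0.0472, 0.434 and 0.809 FPKM. In batch 1 Cre09.g397475 had 0.0474 to 0.161 FPKM, below all 3 UVM11-C9 cultures. Cre09.g397364 had 0.0130 to 0.0905 FPKM in Elow47, a range that overlaps UVM11-C9, and 0.495 to 0.712 FPKM in the mutants of batch 1. Cre09.g397438 between them differed little, with 1.36 FPKM in UVM11 and 1.13 FPKM in UVM11-C9. These neighbours were named after their values were seen. From FPKM alone, absence of the transcript and absence of the DNA in UVM11-C9 cannot be told apart.

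**Figure D2:**
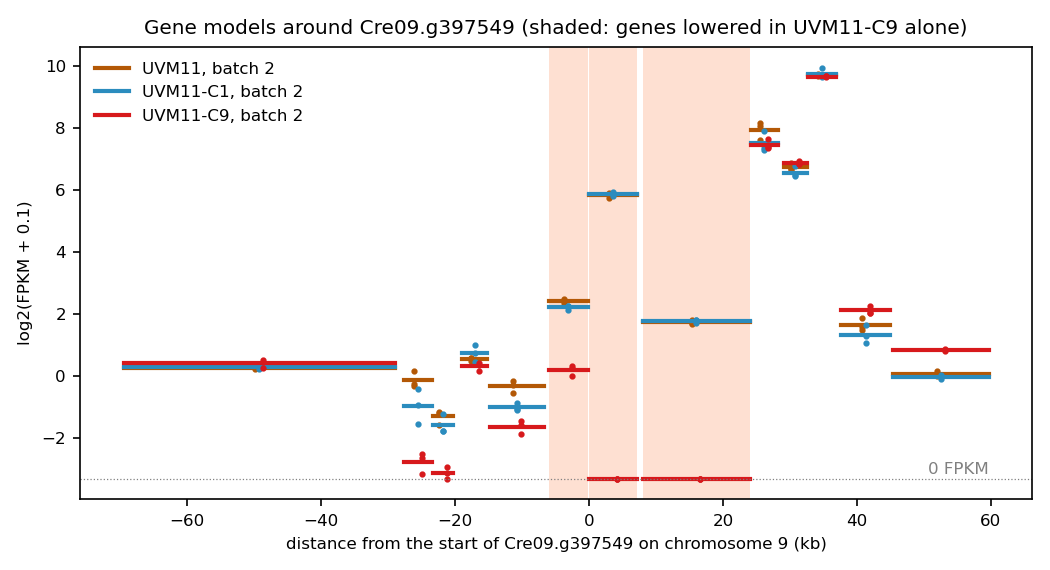
Level of the gene models around Cre09.g397549 in the 3 strains of batch 2, as log2(FPKM + 0.1) against distance from the start of that gene in kb. Bars span each gene model at the group mean, points are the 3 cultures, shading marks the 3 selected genes, and the dotted line marks 0 FPKM. UVM11-C9 is on that line in 2 adjacent gene models. In the gene models shown to their right, UVM11-C9 differs from UVM11 by -0.49 to 0.77 on the log2 scale.

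Outside this block, 2 genes were below 1.1 FPKM in every UVM11-C9 culture and above 3.7 FPKM in all 18 others. Cre03.g194600 (chromosome 3, 6432425 to 6436227) had 0.769, 0.453 and 0.351 FPKM in UVM11-C9, against 7.48, 8.28 and 7.08 FPKM for UVM11 and 5.26 to 6.10 FPKM for UVM11-C1. Batch 1 ranged from 3.72 to 5.74 FPKM around a median of 4.94 FPKM. Its mean in UVM11-C9 was 6.89% of that in UVM11.

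Cre07.g353250 (chromosome 7, 5803022 to 5805175) had 0.475, 1.07 and 1.06 FPKM in UVM11-C9, against 11.4, 6.78 and 9.18 FPKM for UVM11 and 11.6, 11.6 and 7.66 FPKM for UVM11-C1. In batch 1 it ranged from 6.50 to 10.6 FPKM. Its neighbour Cre07.g353300 (5805342 to 5809779) was lower too, with 2.52, 2.13 and 2.10 FPKM in UVM11-C9 and 5.62 to 7.45 FPKM over UVM11 and UVM11-C1 of batch 2. This neighbour also separated the strains of batch 1, where it had 12.5 to 13.3 FPKM in UVM4 and 5.65 to 6.91 FPKM in UVM11. The gene models on either side of the pair, Cre07.g353230 and, past an almost silent one, Cre07.g353350, had means of 5.62 and 15.7 FPKM in UVM11-C9 and of 4.47 and 18.1 FPKM in UVM11, and neither was called lower.

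Some of the genes already differed between the batches in the direction of UVM11-C9. Cre12.g541400 (chromosome 12, 9255853 to 9260458) had 13.7 to 39.3 FPKM in batch 1, 6.80 to 10.8 FPKM in UVM11 of batch 2, 8.74, 9.14 and 10.2 FPKM in UVM11-C1, and 1.55, 1.19 and 2.22 FPKM in UVM11-C9. Cre01.g042450 (chromosome 1, 5967911 to 5982416) had 7.12 to 9.92 FPKM in all 12 batch 1 cultures. In batch 2 it had 0.707, 0.593 and 0.630 FPKM in UVM11 cultures, 0.510, 0.479 and 0.394 FPKM in UVM11-C1, and 0.107, 0.160 and 0.0999 FPKM in UVM11-C9. Both fell in UVM11 between the batches, by 1.04 (SE 0.23, limma adjusted p = 0.000656) and 3.39 (SE 0.11, limma adjusted p = 3.00e-15) on the log2 scale. They were the only 2 of the 185 genes called lower in UVM11 of batch 2, 1.08%, equal to the 1.08% of all tested genes called so. Without UVM11 culture 3 of batch 1 or culture 7 of batch 2, the call of Cre12.g541400 was lost, with log2 differences of -0.98 and -0.89.

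The opposite batch difference was far more frequent. Compared with batch 1, UVM11 of batch 2 was called higher by limma in 60 of the 185 genes, 32.4%, whereas 4.15% of all tested genes were called higher. The median log2 difference of UVM11 between the batches was 0.72 over the 185 genes and 0.00 over all tested genes, and it was above 0 in 154 of the 185. This comparison is not independent of the selection, because the UVM11 cultures of batch 2 are also those against which UVM11-C9 had to be low, and those of batch 1 were held within 1 of Elow47. Among the 46 genes that met the same conditions with the 2 complemented strains exchanged, 11 were called higher in UVM11 of batch 2, 23.9%, with a median of 0.68. Among the 145 genes raised in UVM11-C9 by the mirrored limits, 6 were called higher and 9 lower, 4.14% and 6.21%, with a median of -0.03. With limma's treat method, which tests whether a difference exceeds 1, 15 of the 185 genes were called higher, and with a pseudocount of 1 FPKM 34 were.

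**Figure D3:**
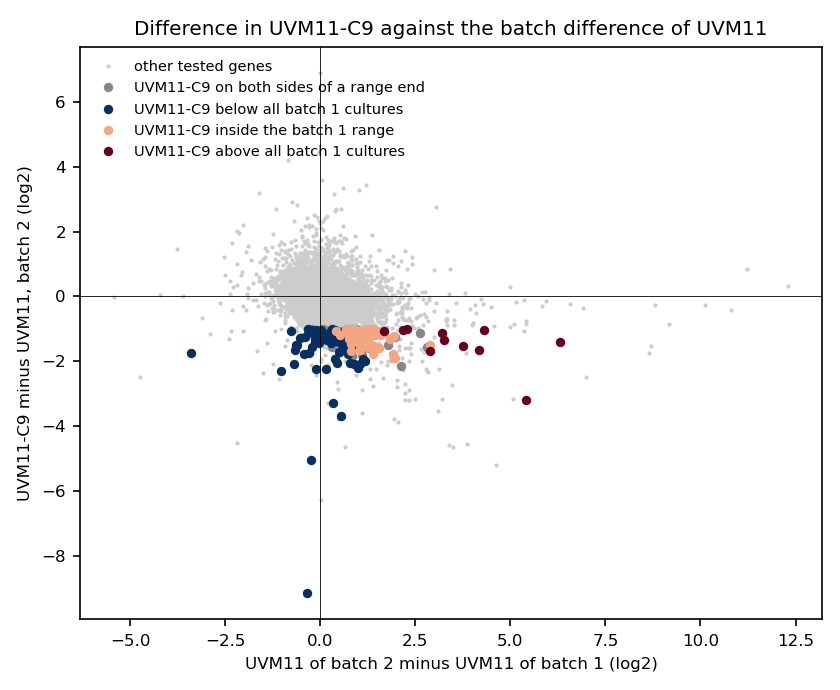
Log2 difference of UVM11-C9 from UVM11 in batch 2 (vertical) against the log2 difference of UVM11 between batch 2 and batch 1 (horizontal), one point per tested gene on log2(FPKM + 0.1). Grey dots are genes that were not selected, and the 185 genes are coloured by where the 3 UVM11-C9 cultures lay relative to the 12 batch 1 cultures. Genes with UVM11-C9 inside or above the batch 1 range lie to the right of 0, and those below it lie on both sides, an arrangement that the selection largely fixes.

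Set against the 12 batch 1 cultures, the UVM11-C9 level took different positions. All 3 UVM11-C9 cultures lay below every batch 1 culture in 80 of the 185 genes, 43.2%, against 21.4% of all tested genes. They lay inside the batch 1 range in 52, 28.1% against 26.5%, and above it in 11, 5.95% against 21.5%. In the remaining 42 genes they lay on both sides of an end of the range. The 6 cultures of UVM11 and UVM11-C1 in batch 2 were all above batch 1 in 62 genes, 33.5% against 12.4% of all tested genes, all below it in 3 genes, 1.62% against 14.1%, and inside it in 12 genes, 6.49% against 10.1%. Without culture 3 of Elow47, an alternative chosen after seeing the data, UVM11-C9 was below batch 1 in 81 genes, inside in 45 and above in 16, and UVM11 with UVM11-C1 was above batch 1 in 86. Strain and batch cannot be told apart in comparisons of UVM11-C9 with batch 1, and these counts are descriptions.

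The most frequent combination, in 59 genes, was UVM11-C9 below the batch 1 range with UVM11 and UVM11-C1 on both sides of an end of it, as for Cre03.g194600 and Cre07.g353250. With UVM11 and UVM11-C1 in that position, UVM11-C9 lay inside the range in another 28 genes and also on both sides of an end in 21. With UVM11 and UVM11-C1 above the range, UVM11-C9 lay on both sides of an end in 20 genes and above it in 11. In 10 genes UVM11 and UVM11-C1 lay inside the batch 1 range and UVM11-C9 below it, as for Cre09.g397512 and Cre06.g278099. In 23 genes UVM11 and UVM11-C1 lay above the batch 1 range and UVM11-C9 inside it, as for Cre13.g569000, Cre13.g569150 and Cre13.g569500. In 8 genes UVM11 and UVM11-C1 lay above and UVM11-C9 below it, as for Cre12.g517850 (chromosome 12, 4088426 to 4090761), which had 0.470 to 1.22 FPKM in batch 1, 1.97 to 2.35 FPKM in UVM11, 1.51 to 1.55 FPKM in UVM11-C1 and 0.297 to 0.468 FPKM in UVM11-C9. The remaining 5 genes fell into 3 rarer combinations. Because UVM11 of batch 2 had to lie at least 1 above UVM11-C9, the position of UVM11-C9 largely fixes that of UVM11.

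**Figure D4:**
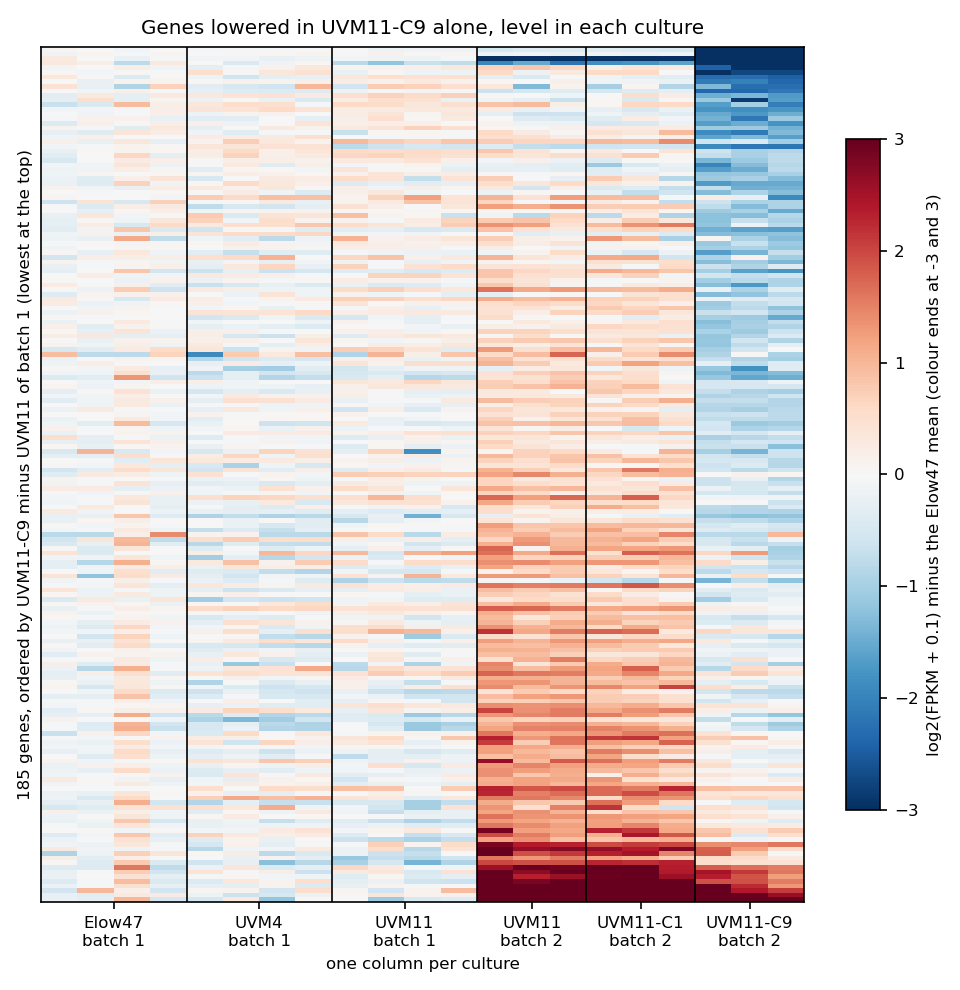
Each row is one of the 185 genes and each column one of the 21 cultures, coloured by log2(FPKM + 0.1) minus the Elow47 mean of the gene, with colours ending at -3 and 3. Rows are ordered by UVM11-C9 minus UVM11 of batch 1, lowest at the top. UVM11-C9 is blue at the top, where the batch 2 cultures of UVM11 and UVM11-C1 are mostly near the batch 1 level. It is pale in the lower part, where these are mostly red, and red in the last rows, where it exceeds UVM11 of batch 1.

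The most strongly expressed genes were ranked by their mean in UVM11 of batch 2, the group that UVM11-C9 had to lie below. This ranking favours genes high in that group, and UVM11-C1 was held close to UVM11. Most of these genes were high in UVM11 and UVM11-C1 of batch 2 and near the batch 1 level in UVM11-C9. The differences between the UVM11 batches given for them, with their adjusted p-values, rest on the ranked values and are descriptions. Cre05.g238311 (chromosome 5, 2965466 to 2968704) had the highest level of the 185, with 400, 493 and 376 FPKM in UVM11 of batch 2, 371, 311 and 281 FPKM in UVM11-C1, and 137, 110 and 120 FPKM in UVM11-C9. In UVM11 of batch 1 it had 176, 197, 132 and 145 FPKM. Its log2 difference between the UVM11 batches was 1.39 (SE 0.24, limma adjusted p = 6.23e-05). In Elow47, 3 cultures had 140 to 164 FPKM and culture 3 had 390 FPKM, inside the range of UVM11 in batch 2.

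The adjacent Cre17.g723350 and Cre17.g723400 (chromosome 17, 3324347 to 3329585 and 3329802 to 3333249) shared this course almost value for value. Cre17.g723350 had 73.3, 80.9 and 85.6 FPKM in UVM11 of batch 2, 85.0, 70.2 and 52.2 FPKM in UVM11-C1, and 26.8, 16.0 and 13.1 FPKM in UVM11-C9. Cre17.g723400 had 58.5, 71.9 and 73.2 FPKM, 72.5, 65.7 and 54.0 FPKM, and 23.5, 17.9 and 13.7 FPKM in these strains. In UVM11 of batch 1 the genes had means of 18.6 and 18.1 FPKM, and UVM11 rose between the batches by 2.12 (SE 0.30, limma adjusted p = 5.70e-06) and 1.96 (SE 0.31, limma adjusted p = 2.53e-05). Culture 3 of Elow47 again stood out, with 62.9 and 54.9 FPKM against 16.0 to 24.5 FPKM in the other Elow47 cultures.

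Cre06.g298750 (chromosome 6, 7302691 to 7308284), Cre09.g408000 (chromosome 9, 6555418 to 6558624) and Cre10.g445050 (chromosome 10, 3495903 to 3502674) behaved similarly. Their UVM11 means in batch 2 were 89.4, 85.8 and 76.2 FPKM, their UVM11-C9 means 24.9, 28.6 and 29.5 FPKM, and their UVM11 means in batch 1 24.0, 30.5 and 33.9 FPKM. All 3 were called higher in UVM11 of batch 2 than of batch 1, with log2 differences between 1.17 and 1.94. Cre03.g176833 (chromosome 3, 4556346 to 4559889) was intermediate. It had 16.7 to 28.0 FPKM in UVM11 of batch 1, 110, 144 and 136 FPKM in UVM11 of batch 2, 150, 148 and 93.3 FPKM in UVM11-C1, and 64.9, 57.9 and 52.8 FPKM in UVM11-C9, which stayed above 11 of the 12 batch 1 cultures.

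The other highly expressed genes lay below batch 1 in UVM11-C9. Cre12.g550702 (chromosome 12, 9616318 to 9619088) had 108, 112 and 110 FPKM in UVM11 of batch 2, 119, 100 and 95.7 FPKM in UVM11-C1, and 48.1, 50.6 and 59.6 FPKM in UVM11-C9, while batch 1 ranged from 78.7 to 108 FPKM. Cre02.g116500 (chromosome 2, 6499550 to 6505579) had 29.8, 29.6 and 29.1 FPKM in UVM11-C9 and 60.1 to 85.7 FPKM over UVM11 and UVM11-C1. Cre07.g325741 (chromosome 7, 1898119 to 1903081) had 33.7, 32.2 and 31.1 FPKM in UVM11-C9 and 60.6 to 85.4 FPKM over UVM11 and UVM11-C1. All 3 were higher in UVM11 of batch 2 than of batch 1, but by less than the limit of 1 for a call. The log2 differences were 0.32 (SE 0.10, limma adjusted p = 0.009997), 0.58 (SE 0.12, limma adjusted p = 0.000301) and 0.58 (SE 0.092, limma adjusted p = 2.45e-05).

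In the 11 genes with UVM11-C9 above batch 1, its mean lay between batch 1 and the other strains of batch 2, and 9 of the 11 were below 1.2 FPKM throughout batch 1. Cre16.g685100 (chromosome 16, 4986952 to 4989719) had the largest batch difference of UVM11 among the 185 genes, 6.32 on the log2 scale (SE 0.44, limma adjusted p = 6.54e-10). It had 0.125 to 0.897 FPKM in batch 1, 55.3, 17.8 and 23.7 FPKM in UVM11 of batch 2, 35.9, 32.3 and 19.6 FPKM in UVM11-C1, and 17.9, 13.5 and 5.25 FPKM in UVM11-C9. The highest UVM11-C9 culture thus overlapped the lowest UVM11 culture, and the UVM11-C9 difference was not a call for this gene. Cre16.g685000, a near neighbour (4996361 to 4999199), had 46.6, 15.4 and 18.4 FPKM in UVM11 and 15.5, 11.2 and 7.22 FPKM in UVM11-C9. Between them, Cre16.g685050 had 196 FPKM in UVM11 of batch 2, 170 FPKM in UVM11-C9 and 16.2 FPKM in UVM11 of batch 1, so that it shared the batch difference and was not among the 185 genes.

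Cre10.g463500 (chromosome 10, 6084346 to 6091917) showed the widest separation in this set. It had 0.109 to 0.285 FPKM in batch 1, 23.9, 6.27 and 9.72 FPKM in UVM11 of batch 2, 9.76, 9.99 and 6.67 FPKM in UVM11-C1, and 2.13, 1.20 and 0.584 FPKM in UVM11-C9. Its 3 UVM11-C9 cultures lay apart from all others on both sides. Cre10.g426800 (chromosome 10, 1252928 to 1258179) had 0.555 to 1.18 FPKM in batch 1, 41.0, 15.3 and 17.7 FPKM in UVM11 cultures, 25.7, 26.7 and 22.5 FPKM in UVM11-C1, and 16.4, 12.4 and 6.12 FPKM in UVM11-C9. In each of these 4 genes culture 5 of UVM11 was the highest of its group, culture 1 of UVM11-C9 the highest of its group and culture 3 the lowest. Over all 185 genes, culture 1 was the highest UVM11-C9 culture in 91, 49.2%, against 34.7% of all tested genes.

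**Figure D5:**
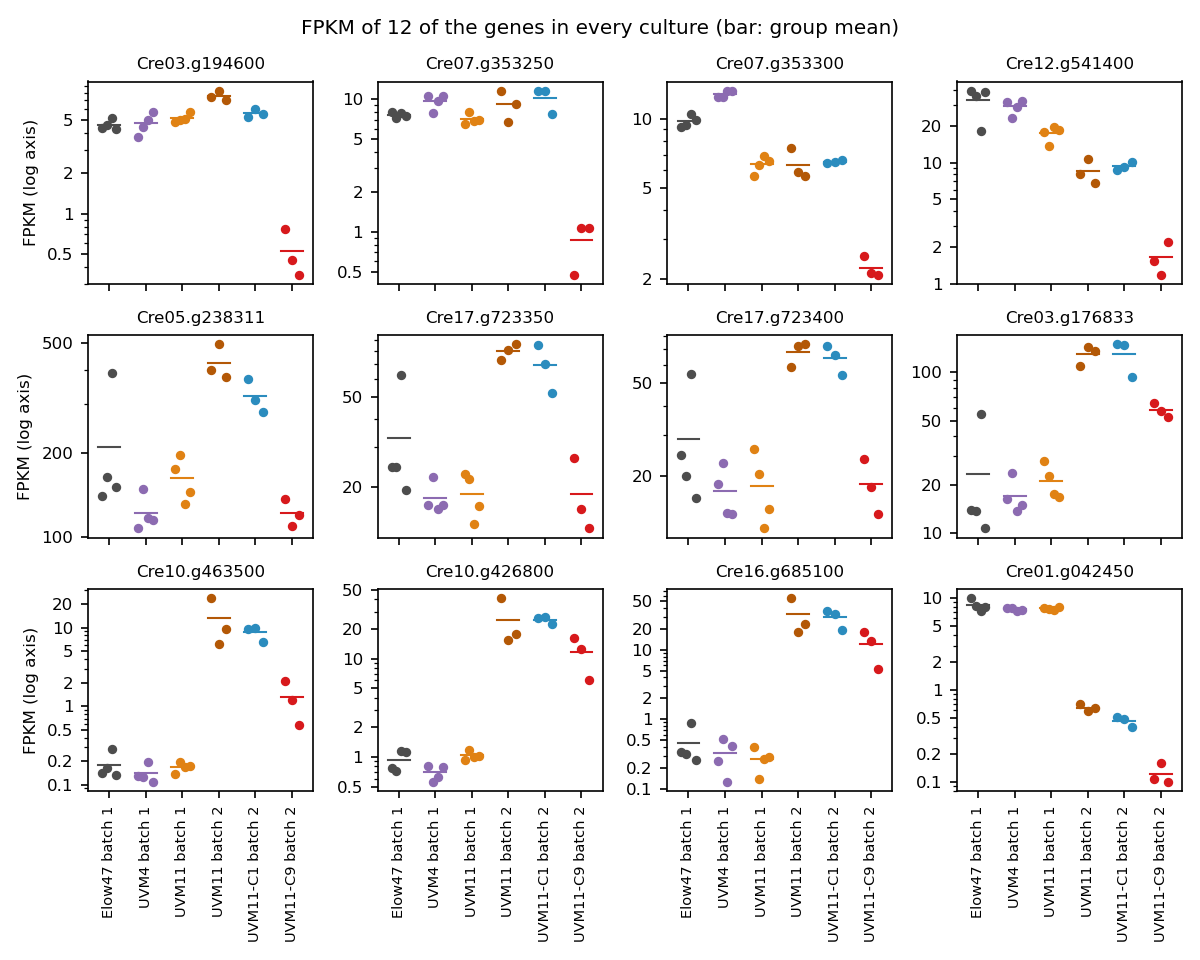
FPKM of 12 of the 185 genes in all 21 cultures on log axes, each with its own range, one point per culture and a bar at the group mean. The top row shows genes below every batch 1 culture in UVM11-C9, the middle row strongly expressed genes that were high in UVM11 and UVM11-C1 of batch 2 and in one Elow47 culture, and the bottom row genes with large batch differences.

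Culture 3 of Elow47 was distinctive for these genes beyond the examples given. It exceeded the mean of the other 3 Elow47 cultures by more than 1 on the log2 scale in 23 of the 185 genes, 12.4%, against 1.24% of all tested genes, and fell short of it by more than 1 in 3, 1.62% against 0.558%. The largest excess, 2.11, was in Cre03.g176833, where culture 3 had 54.8 FPKM and the others 10.7 to 13.9 FPKM. Without this culture, 184 genes met the conditions, 183 of them among the 185. What set it apart was not tested.

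Of the 185 genes, 42 lay within 5 gene models of another one, in 19 groups of at most 3, and 15 pairs were directly adjacent. On chromosome 10, which held 24 of the genes, 2.45% of its tested genes against 1.20% of all tested genes, there were 5 such groups. Cre10.g445000 and Cre10.g445050 were adjacent and had 13.2 to 15.9 and 26.9 to 32.7 FPKM in UVM11-C9, against 25.3 to 39.1 and 48.2 to 80.1 FPKM over UVM11 and UVM11-C1. Cre10.g457050 stood near Cre10.g457194 and Cre10.g457228, which overlap each other, so that fragments in the shared stretch may have been counted for either. In all, 10 of the 185 genes overlap another gene model, among them Cre17.g723350, Cre13.g569150 and Cre06.g298800, and whether strand was used in counting is not given. Cre10.g448977 and Cre10.g449020, the aminotransferase-related gene, were separated by one gene model that was not lower by the threshold. Cre10.g449020 had 1.25, 1.09 and 1.39 FPKM in UVM11 cultures, 1.24, 1.15 and 0.660 FPKM in UVM11-C1, and 0.480, 0.492 and 0.646 FPKM in UVM11-C9. Cre10.g426800 was next to Cre10.g426850, and Cre10.g463500 was near Cre10.g463355. The gene of the 185 nearest to SRTA, Cre10.g461895, started 48.1 kb from it.

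Chromosome 13 held 2 groups close to each other. Cre13.g569000 and Cre13.g569150 had 20.1 to 23.2 and 14.7 to 21.5 FPKM over UVM11 and UVM11-C1 of batch 2, and 9.72 to 10.2 and 7.57 to 8.40 FPKM in UVM11-C9. Among Cre13.g569400, Cre13.g569450 and Cre13.g569500, 3 consecutive gene models, the differences of UVM11-C9 from UVM11 were -2.10, -2.08 and -1.20 on the log2 scale. Cre13.g569400 (1118318 to 1121021) had 9.60, 8.31 and 7.53 FPKM in UVM11 cultures, 11.7, 10.7 and 9.60 FPKM in UVM11-C1, and 2.62, 1.69 and 1.53 FPKM in UVM11-C9. Its batch 1 range of 3.38 to 9.64 FPKM reached so high only through culture 3 of Elow47.

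The other groups were Cre01.g004750 with Cre01.g004900 and Cre01.g033450 with Cre01.g033500 on chromosome 1, Cre02.g115500, Cre02.g115508 and Cre02.g115567 on chromosome 2, and Cre03.g153500 with Cre03.g153550 and Cre03.g174400 with Cre03.g174450 on chromosome 3. Further pairs were Cre05.g238311 with Cre05.g238353, Cre06.g298750 with Cre06.g298800, and Cre14.g616826 with Cre14.g616850. In these the log2 differences of UVM11-C9 from UVM11 were -1.89 at the lowest and close to the limit of -1 at the highest. The members of a group could differ between batches. Cre14.g616826 had 0 to 0.158 FPKM in batch 1 and 0.975 to 1.63 FPKM in UVM11 of batch 2, while its neighbour Cre14.g616850 had 3.74 to 5.48 FPKM and 2.68 to 3.39 FPKM.

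Gene models directly next to one of the 185 genes, but not among them, were mostly not called lower. Of 286 such tested gene models, 11 were called lower in UVM11-C9 than in UVM11, 3.85%, against 2.18% of all tested genes. Their median log2 difference was -0.07, and 56.6% were below 0, against 50.8% of all tested genes. Both shares over all tested genes include the 185, which the neighbours leave out. Of the 337 tested genes called lower, 169 were among the 185, so that 2.18% is too high a share to set against these neighbours.

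The differences that selected the genes were mostly close to the limit. The median log2 difference of UVM11-C9 from UVM11 was -1.24, and it was below -1.5 in 49 genes, below -2 in 15 and below -3 in 5. Just inside the limit were Cre03.g150750, Cre02.g141246 and Cre09.g411500, with UVM11 and UVM11-C9 means of 3.75 and 1.82 FPKM, 0.785 and 0.344 FPKM, and 4.64 and 2.26 FPKM. Just outside it were Cre03.g146207, Cre06.g299550 and Cre05.g244400, with 0.474 and 0.236 FPKM, 66.3 and 33.3 FPKM, and 30.9 and 15.4 FPKM. Genes inside and outside the limit were thus nearly alike, and some at the limit were at levels where single cultures overlap.

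By the limma threshold, 169 of the 185 genes were called lower in UVM11-C9 than in UVM11 of batch 2, beside 2.18% of all tested genes, and 108 were called lower than in UVM11-C1, beside 1.88%. Both comparisons use the cultures that selected the genes, so that the counts were largely fixed by the selection, and the same holds for the counts of cultures that follow. The 3 UVM11-C9 cultures lay below the 3 UVM11 cultures of batch 2 in 180 genes, beside 27.7% of all tested genes, and below all 6 cultures of UVM11 and UVM11-C1 in 165, beside 17.2%. Each single UVM11-C9 culture was more than 1 below the UVM11 mean in 108 genes, in 65 only 2 cultures were and in 12 only 1 was. The median difference of UVM11-C1 from UVM11 was -0.17.

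The genes were of lower level and shorter than genes in general, which is a description. The levels compared include values that the selection used, and whether the selection favours genes of low level was not tested. Their median of the mean FPKM over all cultures was 2.02, against 5.61 for all tested genes, and 39 of them exceeded 10 FPKM in UVM11 of batch 2, 21.1% against 34.4% of all tested genes. Another 101 had 1 to 10 FPKM and 45 less than 1 FPKM. Median gene length was 3429 bases, against 4539 bases.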

How the data were processed

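RNAseq data of 21 cultures were used, grouped by strain from the sample labels. The labels name no batch, so that batch was inferred from the replicate numbers and the study's description of its batches. The authors aligned reads with RNA-STAR (version 2.4.0j) to version 5 of the genome and deposited FPKM per gene model, computed with cuffdiff (version 2.2.1). The labels name a stranded total RNA kit and the study's methods a poly(A) kit, and whether counting used strand is not given in the sources used here. Positions came from the RefSeq table of the same assembly, which held 17738 of the 17741 gene models. It gives no gene names, so that lists of gene families planned by name could not be applied, apart from 17 histone deacetylase genes with identifiers in the study. The same holds for markers of gametes and motile cells.

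Values were taken as log2(FPKM + 0.1), which understates differences of genes of low level, and 15425 genes with a mean above 0.1 FPKM were tested with limma (version 3.58.1, R version 4.3.3) in one model of 6 groups with 15 residual degrees of freedom and a variance trend. Tables were made with Python (version 3.11.15) and pandas (version 2.3.3). The model was tested on simulated data. The columns taken as UVM11-C1 were assigned to that strain by inference, since their names differ from those of UVM11 only in the case of a letter. They were not matched to single samples of UVM11-C1. Each deposited column was taken to belong to one of the 21 samples. Genes named are the 10 with the lowest difference of UVM11-C9, the 10 of highest mean in UVM11 of batch 2, and those listed at 0. Those within 5 gene models of each other, 3 on either side of the limit, the extremes of the batch difference, and SRTA are named too. Further genes named were chosen after their values were seen: Cre04.g221600, Cre06.g251683, Cre10.g461895, Cre16.g652000 and neighbours of named genes. Members and lists were chosen with earlier results of these data known. Alternatives were pseudocounts of 1 and 0.01, a filter at 1 FPKM or none, quantile normalization, treat, an adjusted p below 0.05, models of the compared groups, and leaving out each culture.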

Additional observations from a re-analysis of the deposited data

Results flagged for a closer look

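In groups of 4 cultures, a single culture was taken to stand apart when its gap to the nearest other, divided by the range, exceeded Dixon's critical value at the 95% level. Among 165 groups looked at for the named genes, 14 met this, and chance alone gives about 1 in 20. Of these, 10 were culture 3 of Elow47, which was the highest in each. It had 62.9 FPKM of Cre17.g723350 (others 19.3 to 24.4), 390 FPKM of Cre05.g238311 (140 to 164), 54.8 FPKM of Cre03.g176833 (10.7 to 13.9), 70.2 FPKM of Cre09.g408000 (31.2 to 32.2) and 39.1 FPKM of Cre03.g174450 (12.5 to 15.8). It also had 25.6 FPKM of Cre03.g174400 (14.5 to 15.5), 17.9 FPKM of Cre13.g569500 (9.77 to 10.95), 1.72 FPKM of Cre03.g153550 (1.19 to 1.22), 0.897 FPKM of Cre16.g685100 (0.256 to 0.334) and 0.196 FPKM of Cre01.g004750 (0.0774 to 0.0844).

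Culture 2 of UVM4 was the highest of its group for 2 of the same genes, with 22.2 FPKM of Cre17.g723350 (others 15.9 to 16.6) and 37.2 FPKM of Cre09.g408000 (27.5 to 29.1). Culture 3 of UVM11 in batch 1 had 1.18 FPKM of Cre10.g449020 (0.910 to 0.956), and culture 1 of Elow47 had 0.113 FPKM of Cre14.g616826 (0.0647 to 0.0691).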

How the results depend on the processing

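The number of genes that met the conditions was 185 and ranged from 162 to 203 when each culture was left out in turn. A pseudocount of 1 FPKM left 64 genes, 61 of them among the 185, since genes of low level then no longer reach the limit. With a pseudocount of 1, 60 of the 185 genes were called lower in UVM11-C9 than in UVM11, 51 lower than in UVM11-C1, 34 higher in UVM11 of batch 2 than of batch 1, and 1 lower. With the treat method these numbers were 18, 18, 15 and 1. Leaving out each culture gave 132 to 172 genes called lower in UVM11-C9 than in UVM11, 100 to 117 lower than in UVM11-C1, 54 to 66 higher in UVM11 of batch 2 and 1 to 2 lower. Without each UVM11-C9 culture, 84 to 87 genes had UVM11-C9 below batch 1, 58 to 60 inside its range and 11 to 14 above it. The UVM11-C9 difference of Cre16.g685100 became a call with a pseudocount of 1, at -1.31, and without culture 1 of UVM11-C9, at -1.75. Quantile normalization, the other filters, a pseudocount of 0.01, an adjusted p below 0.05 and models of only the compared groups moved none of these counts by more than 1.5 times. The direction of no named difference tested was reversed. No paired analysis was possible because UVM11 of batch 2 shares no culture numbers with UVM11-C9 or with UVM11 of batch 1. The columns taken as UVM11-C1 were not matched to single samples. The counts of calls in UVM11-C9 rest on the cultures that selected the genes and are no separate evidence. The depth in reads is unknown, which limits most the 45 genes below 1 FPKM in UVM11.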

Other observations

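Some further genes of the 185 give values that belong to no example above. Cre16.g652000 (chromosome 16, 1377012 to 1380376) was strongly expressed, and its UVM11-C9 cultures lay far from all others. It had 91.7 to 103 FPKM in UVM11 of batch 1, 47.6 to 64.3 FPKM in UVM4, 53.5 to 71.6 FPKM in UVM11 of batch 2, 57.4 to 66.3 FPKM in UVM11-C1, and 14.8, 14.6 and 13.2 FPKM in UVM11-C9. UVM4 overlapped both strains of batch 2, and the log2 difference of UVM11 between batch 2 and batch 1 was -0.68 (SE 0.13, limma adjusted p = 0.000123), less than the limit for a call.

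Cre06.g251683 on chromosome 6 and Cre04.g221600 on chromosome 4 belonged with the genes nearly silent in batch 1. Cre06.g251683 had 0 to 0.196 FPKM in batch 1, 1.68 to 5.09 FPKM in UVM11 of batch 2 and 0.537 to 1.55 FPKM in UVM11-C9. Cre04.g221600 had 0.257 to 0.963 FPKM, 3.93 to 9.54 FPKM and 1.52 to 2.02 FPKM in these cultures.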
